A study of Arabidopsis thaliana with 47 samples.

Results

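The UDP-glycosyltransferase (UGT) genes of Arabidopsis thaliana were followed across all 12 treatment groups of a root cell experiment on the transcription factor bZIP1. Members were the probe sets of the ATH1 array that the array's annotation matched to exactly 1 gene with a symbol starting with UGT. There were 47 of them, each for a different gene, among 22746 probe sets that are no controls. They fall into 11 families by number: 9 in family 71, 4 in 72, 7 in 73, 3 in 74, 8 in 76, 3 in 78, 5 in 84, 5 in 85, and 1 each in 80, 87 and 88. A further 3 UGT probe sets matched 2 genes each and were left out. The rule reads gene names alone.

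The cells were protoplasts, wall-less cells released from roots of Col-0 seedlings aged 10 days by 4 h of enzyme digestion. They were transfected for 25 min with pBeaconRFP_GR::bZIP1, which the study's design describes as a 35S-driven fusion of bZIP1 to the glucocorticoid receptor (GR) domain, or with the pBeaconRFP_GR empty vector, kept overnight, and sorted at the end for the red fluorescence of the vector. They then received nitrogen (N) for 2 h, as KNO3 and NH4NO3 at 20 mM each, or 20 mM KCl in its place. Cycloheximide (CHX), which blocks protein synthesis, came next, against solvent, and dexamethasone (DEX, 10 µM in ethanol), which lets a GR fusion enter the nucleus, came last, against ethanol. Cells with GR::bZIP1 and CHX gave 24 arrays, 6 for each combination of N and DEX, from 2 preparations labelled Biorep 1 and Biorep 2. Cells with GR::bZIP1 and no CHX gave 12 arrays, 3 per combination. Empty-vector cells, all with CHX, gave 11 arrays, 3 per combination except 2 for DEX without N. All cells therefore came from wild-type roots that still have their own bZIP1 gene, and the introduced factor was overexpressed.

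UGTs move a sugar, most often glucose, from a UDP-sugar onto small molecules. The acceptors include plant hormones, flavonoids, monolignols, sterols and foreign compounds, and the sugar changes their solubility, storage or activity. Plants carry large UGT families, with close relatives often lying side by side on a chromosome. By that order in the RefSeq annotation of TAIR10.1, 31 of the 47 genes lay in 13 clusters, defined here as members at most 5 protein-coding genes apart.

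Values are log2 signals. The lowest value in each set of arrays is its floor, which was 2.298 in bZIP1 cells with CHX, 2.303 without CHX and 2.287 in empty-vector cells. Because these floors differ, the 3 sets were evidently summarised apart, and levels of different sets are given side by side without a test. Between 38% and 40% of the values of an array in bZIP1 cells with CHX lay within 0.05 of the floor. Arrays of the same group correlated at 0.978 or more in that set. Of 17 genes listed as markers of root cell types, 3 were named on the array. EXPA7, a root hair expansin, was at the floor on 21 of 24, 12 of 12 and 11 of 11 arrays in the 3 sets. AT1G62500 was at the floor on every array and AT1G09750 on 20 of 24, 11 of 12 and 9 of 11, so the labelled root origin could not be seen in these markers. None of 6 listed leaf genes was named.

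A UGT gene was counted as above the floor in a set when its mean there was at least 1 log2 unit over the floor. Some probe sets repeat a value of their own above the floor, and this measure does not set them apart. In empty-vector cells UGT80B1 ran from 3.333 to 3.376, and UGT76C1 read 4.18 on all arrays with KCl. By this measure 21 of 47 genes (44.7%) were above the floor in bZIP1 cells with CHX, 20 (42.6%) in bZIP1 cells without CHX and 21 (44.7%) in empty-vector cells. The shares over all probe sets were 46.8%, 49.0% and 47.1%. In all 3 sets, 17 genes were above the floor and 23 in none. UGT71C1, UGT71C3, UGT73C2, UGT84B1, UGT85A3 and UGT85A5 lay within 0.05 of the floor on every array. Of these, UGT84B1 is known to glucosylate the auxin indole-3-acetic acid.

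**Figure D1:**
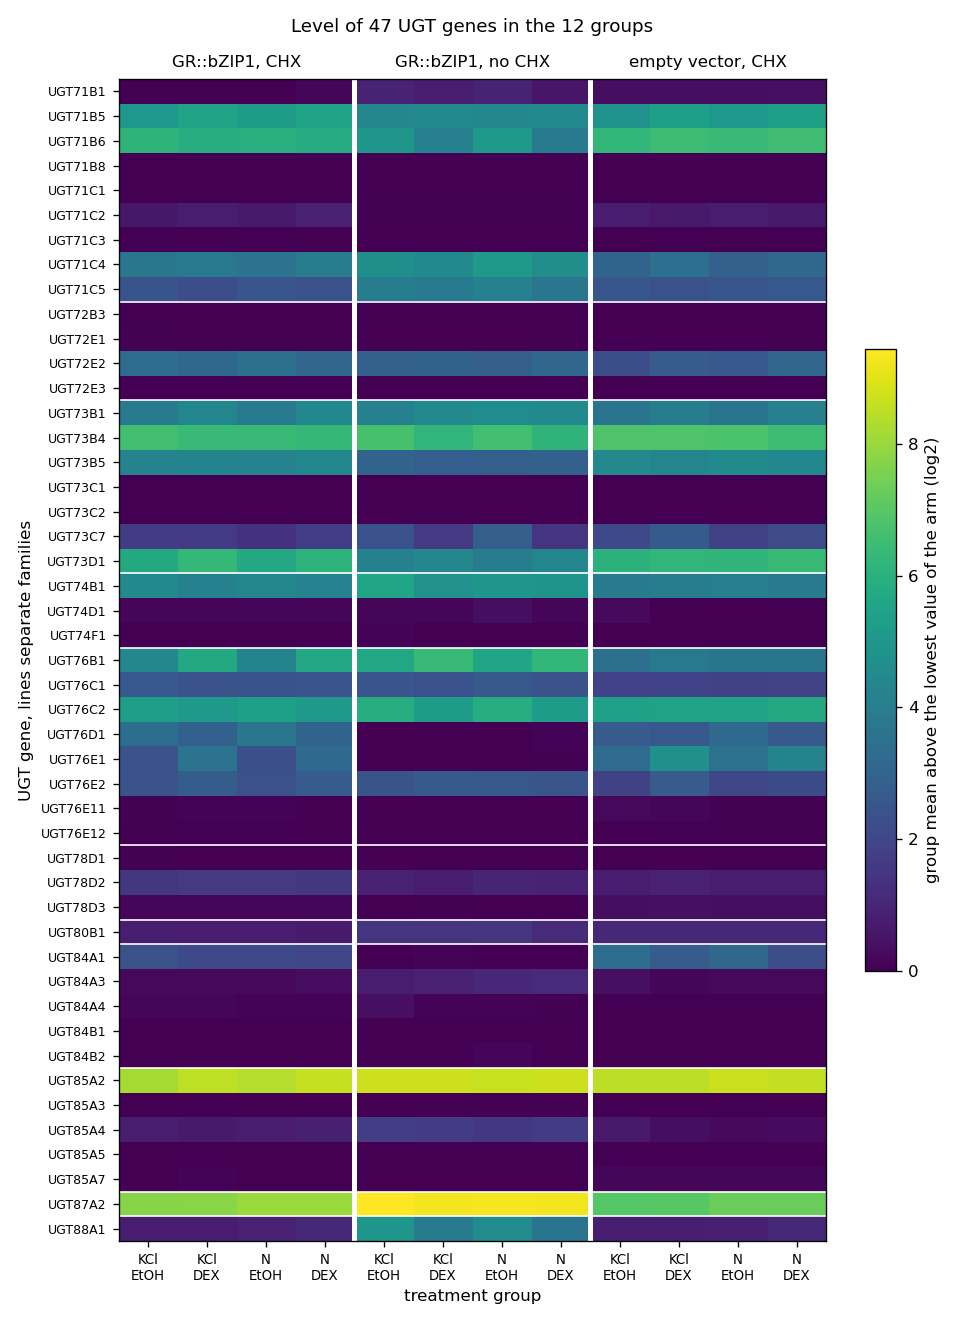
Mean log2 level above the floor of its own set (colour) for the 47 UGT genes (rows, by family) in the 12 groups (columns). Colour is to be read along a row within the block of a single set, since levels of different probe sets or of the 3 sets of arrays share no scale. UGT76D1, UGT76E1 and UGT84A1 lie near the floor in the middle block only, and UGT88A1 lies well above it in that block only.

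The families differed in how many members were above the floor by this measure. In family 76, 6 of 8 genes were above the floor in at least 1 set, and in family 73, 5 of 7. In family 71 it was 4 of 9, in 85 it was 2 of 5, in 72 it was 1 of 4 and in 84 it was 1 of 5. In family 78, whose members glycosylate flavonoids, only UGT78D2, the flavonoid 3-O-glucosyltransferase, reached that level, and only in bZIP1 cells with CHX. Neighbours did not share this state throughout. UGT85A2 was above the floor while UGT85A7, UGT85A5 and UGT85A3 of the same cluster were not. Of the pair UGT78D3 and UGT78D2, only UGT78D2 was above the floor. Both members were above it in the pairs UGT76E1 and UGT76E2, UGT73B5 and UGT73B4, UGT73D1 and UGT73C7, and UGT76C2 and UGT76C1. Neither member was in the pairs UGT71C2 and UGT71C1, UGT73C1 and UGT73C2, UGT76E12 and UGT76E11, and UGT84B2 and UGT84B1.

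CHX is used in this system so that a response to DEX does not need newly made proteins, and the bZIP1 cells with CHX address which UGT genes respond under that condition. With DEX, 7 of the 47 genes rose and 1 fell. The largest rises were in family 76: UGT76B1, which glucosylates isoleucic acid and salicylic acid, rose 2.54-fold, and UGT76E1, known for glucosylating a hydroxylated jasmonate, rose 2.08-fold. UGT76D1 fell. The test was limma across all 22746 probe sets with Benjamini-Hochberg adjustment at 0.05, and 8 of 47 genes (17%) passed it, against 6.16% of all probe sets tested (3.19% higher and 2.97% lower). In cells pooled from a whole root, fewer cells of a type and less RNA per cell cannot be told apart. The labels do not say that treatment replicates were separate cultures, so these p-values measure the spread between arrays, which may be technical.

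The level of UGT76B1 ran from 7.68 to 8.15 with a median of 7.97 on the 12 arrays with DEX, and from 5.99 to 7.04 with a median of 6.71 on the 12 without. The 2 sides did not overlap. The difference was 1.35 ± 0.11 on the log2 scale (SE, limma adjusted p = 4.79e-08), and it was 1.47 in Biorep 1 and 1.22 in Biorep 2. Within each Biorep it was alike with and without nitrogen: 1.44 with KCl and 1.51 with N in Biorep 1, and 1.19 and 1.25 in Biorep 2. In each of these 4 settings the 3 arrays with DEX lay above the 3 without.

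UGT76E1 ran from 5.15 to 6.45 with a median of 5.57 with DEX, and from 4.09 to 5.08 with a median of 4.73 without. Its sides did not overlap either, and the difference was 1.06 ± 0.15 (limma adjusted p = 6.53e-05), with 1.07 in Biorep 1 and 1.04 in Biorep 2. Its cluster neighbour UGT76E2 moved less and only just passed, with 4.61 to 5.57 against 4.13 to 4.95 and a difference of 0.37 ± 0.11 (limma adjusted p = 0.0495). The related UGT76E11 and UGT76E12 were above the floor in no set. UGT76D1, known to glucosylate dihydroxybenzoic acids, ran from 4.65 to 5.86 with DEX and from 4.65 to 6.83 without. Its sides overlapped, and it fell by 0.57 ± 0.16 (limma adjusted p = 0.032).

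**Figure D2:**
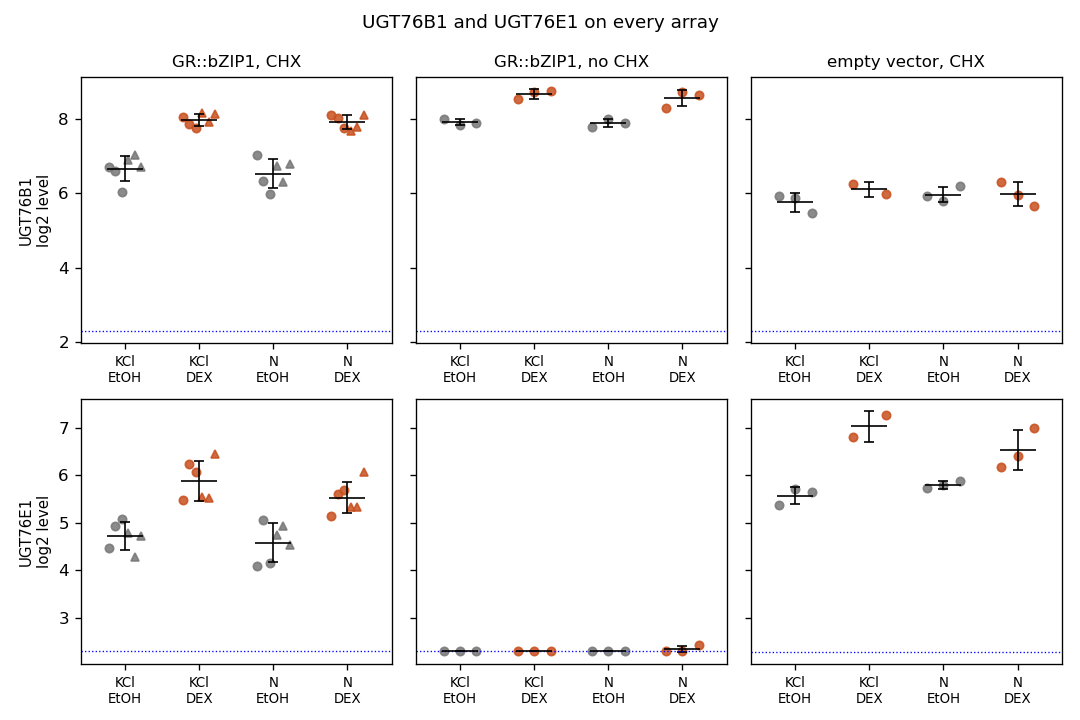
Log2 level of UGT76B1 (top) and UGT76E1 (bottom) on every array, by group; orange is DEX, grey is no DEX, triangles are Biorep 2, bars are the mean and SD, and the dotted line is the floor. UGT76B1 is higher with DEX in both bZIP1 sets, and UGT76E1 is higher with DEX in both sets with CHX and lies at the floor in nearly all cells without CHX.

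In family 73, which is known for stress-induced members that act on flavonols and other phenolics, UGT73D1 and UGT73B1 rose. UGT73D1 ran from 7.48 to 9.44 with DEX and from 7.15 to 9.13 without. These ranges overlap, and the gene stood at different levels in the 2 Bioreps, within which the difference was 0.41 and 0.54. Over both it was 0.48 ± 0.08 (limma adjusted p = 0.00041). For UGT73B1 the DEX arrays lay between 6.23 and 7.41 and the others between 5.35 and 7.05, a difference of 0.54 ± 0.13 (limma adjusted p = 0.0121). The smaller rises were those of UGT85A2 and UGT71B5. UGT85A2 went from a median of 10.6 to 10.86, by 0.30 ± 0.08 (limma adjusted p = 0.0158). UGT71B5 went from a median of 7.39 to 7.77, by 0.35 ± 0.09 (limma adjusted p = 0.0195).

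The other 39 genes did not pass. UGT71C4 came nearest, with a difference of 0.25 ± 0.07 (limma adjusted p = 0.0567). The median difference over the 47 genes was 0.00065, against 0 over all probe sets. With the arrays of each Biorep and group averaged, which leaves 8 values, no UGT gene passed, and UGT76B1 had an adjusted p of 0.0508. In each Biorep taken alone 2 genes passed. The count was 4 without replicate 1, and 3 without replicate 2 and likewise without replicate 3. Shares over all probe sets are not given for these alternatives, so the lower counts are no result about UGT genes in particular.

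To ask which of these responses DEX gives without bZIP1 on the vector, the same comparison was made in empty-vector cells with CHX. UGT76E1 rose there too, by 1.1 ± 0.16 on the log2 scale (limma adjusted p = 0.0275). Its arrays with DEX read 6.80 and 7.26 without N and 6.18, 6.41 and 6.99 with N, against 5.37 to 5.87 with a median of 5.71 on the 6 arrays without DEX. The sides did not overlap. It was the single gene of 47 (2.13%) that passed, against 1.05% of all probe sets, and it no longer passed when replicate 1, 2 or 3 was left out.

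Of the 8 genes that passed in bZIP1 cells with CHX, 7 had an empty-vector difference of the same sign. The matching share over all called probe sets was not counted. Among the 7, UGT73D1 differed by 0.14 with KCl and 0.20 with N, and UGT76B1 by 0.35 and 0.004. UGT76E2 differed by 0.48 ± 0.11, UGT71B5 by 0.41 ± 0.11, UGT73B1 by 0.38 ± 0.14 and UGT76D1 by -0.36 ± 0.08, none past the threshold in the empty vector (limma adjusted p from 0.134 to 0.488). UGT85A2 was the exception in sign, at -0.06 ± 0.09.

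The difference between the DEX effects of the 2 vectors was tested in 1 fit of all 47 arrays. UGT76B1 was the single gene that passed: its DEX effect was higher with bZIP1 by 1.17 ± 0.18 (limma adjusted p = 2.51e-05). That is 1 of 47 (2.13%), below the 4.53% of all probe sets. In empty-vector cells UGT76B1 read 5.66 to 6.30 with DEX and 5.46 to 6.19 without, with overlap, a difference of 0.18 ± 0.15. The call held under all 10 alternatives run for it, with differences from 0.94 to 1.39, while without replicate 1 the count was 3.

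For UGT76E1 the difference between vectors was -0.04, with a 95% interval of -0.49 to 0.42. For UGT71B5 it was -0.06 (-0.35 to 0.23), for UGT76E2 -0.11 (-0.45 to 0.24), for UGT73B1 0.16 (-0.24 to 0.56) and for UGT76D1 -0.21 (-0.66 to 0.23). For UGT73D1 the interval ran from -0.02 to 0.63. UGT85A2 came closest to passing after UGT76B1, at 0.37 ± 0.11 with an interval of 0.13 to 0.60 (limma adjusted p = 0.0632). The labels name Bioreps in bZIP1 cells with CHX alone, so vector and preparation cannot be told apart in these differences. The sets were also evidently summarised apart, and vector cannot be told apart from that either.

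**Figure D3:**
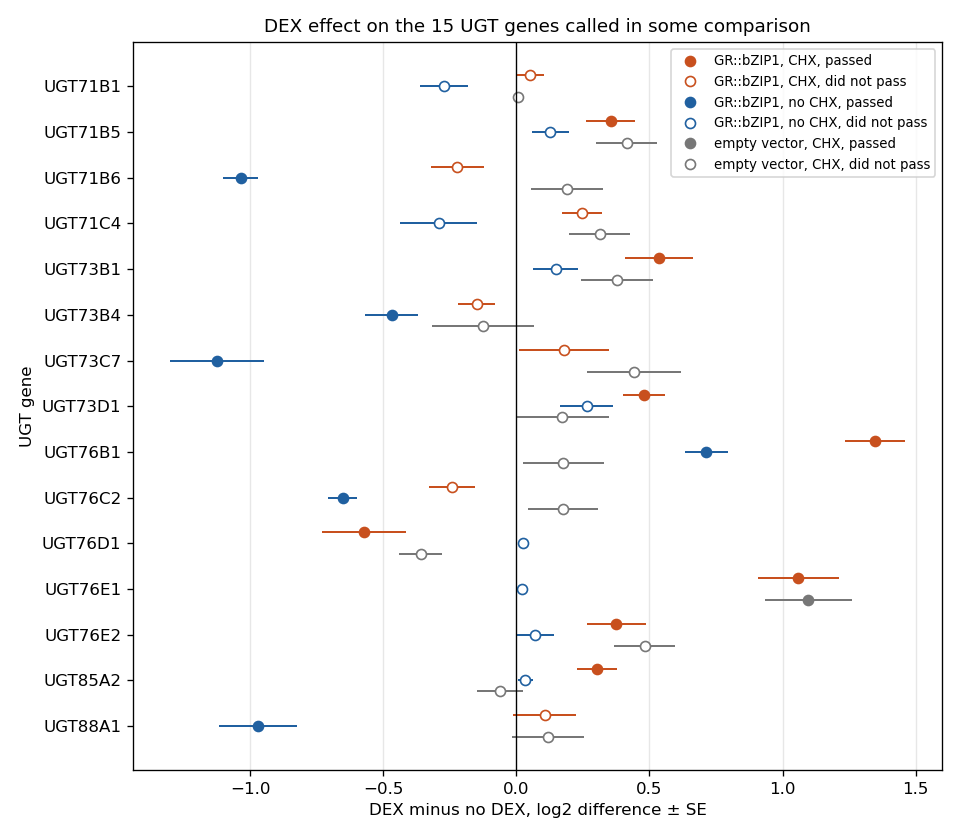
DEX minus no DEX (log2 difference, bars are SE) for the 15 UGT genes that passed in any comparison, in the 3 sets of arrays; filled points passed the test of that set. UGT76B1 is right of 0 in both bZIP1 sets, UGT76E1 in both sets with CHX, and UGT71B6, UGT73C7, UGT76C2 and UGT88A1 are left of 0 by 0.65 to 1.12 in the set without CHX.

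In bZIP1 cells without CHX, where protein synthesis was left running, 5 UGT genes fell with DEX and 1 rose. Those that fell were UGT71B6, UGT73C7, UGT88A1, UGT76C2 and UGT73B4, and UGT76B1 rose. UGT71B6 glucosylates abscisic acid, and UGT76C2 glucosylates cytokinins on a ring nitrogen, which inactivates them. These 6 of 47 genes (12.8%) stood against 4.29% of all probe sets (1.84% higher and 2.45% lower). With each array centred on its median the count was 21, with 14 higher and 7 lower, and 8410 probe sets were called in all. Array medians were on average 0.02 lower with DEX in this set, and that centring shifts every floor value by construction; the 6 genes named here passed in the same direction under it. The median over the 47 genes was 0, as over all probe sets. Among the 8 genes called with CHX, UGT76B1 was the single one called here as well, and 7 had a difference of the same sign here. The matching shares over all called probe sets were not counted. Of the 12 arrays without CHX, UGT76E1 lay at the floor on 11 and UGT76D1 on 10. In these genes a DEX effect could hardly be measured without CHX, so the missing calls do not show that their response was absent.

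UGT71B6 read 6.43, 6.58 and 6.26 with DEX and KCl and 6.31, 6.13 and 6.13 with DEX and N. Without DEX it read 7.29, 7.28 and 7.30 with KCl and 7.24, 7.5 and 7.44 with N. No array with DEX reached any array without it, and the gene fell by 1.03 ± 0.07 (limma adjusted p = 0.000118), a 2.05-fold change. The fall was 0.87 with KCl and 1.2 with N, and the test of that difference did not pass (adjusted p = 1 for the interaction, unadjusted p = 0.0366). UGT71B6 passed under all 9 alternatives run for it.

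UGT76C2 read 7.57, 7.55 and 7.44 with DEX and KCl and 7.41, 7.66 and 7.49 with DEX and N. Without DEX it read 8.30, 8.05 and 8.15 with KCl and 8.15, 8.23 and 8.16 with N. The sides were again apart, and the gene fell by 0.65 ± 0.06 (limma adjusted p = 0.000446). Its neighbour UGT76C1, also a cytokinin N-glucosyltransferase, ran from 4.56 to 4.73 with DEX and from 4.51 to 5.31 without, and did not pass.

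UGT76B1 read 8.53, 8.73 and 8.76 with DEX and KCl and 8.31, 8.72 and 8.64 with DEX and N. Without DEX its 6 arrays lay between 7.77 and 8.01. Every array with DEX lay higher, and the rise was 0.71 ± 0.08 (limma adjusted p = 0.00194), or 1.64-fold.

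UGT73C7, UGT88A1 and UGT73B4 completed the calls. UGT73C7 lay between 3.41 and 4.09 with DEX, median 3.9, and between 4.34 and 5.38 without, median 4.98, and fell by 1.12 ± 0.18 (limma adjusted p = 0.0095). UGT88A1 lay between 5.82 and 6.41 with DEX, median 6.02, and between 6.72 and 7.63 without, median 6.99, and fell by 0.97 ± 0.15 (limma adjusted p = 0.00753). In both genes the sides did not overlap. UGT73B4 overlapped, with 8.18 to 8.65 against 8.63 to 9.09, and fell by 0.47 ± 0.10 (limma adjusted p = 0.0357). With 3 arrays per group, leaving out a replicate left 1 to 4 of the 6 calls: UGT71B6 stayed each time, UGT76C2 was lost without replicate 3, UGT76B1 and UGT88A1 without replicate 2 or 3, and UGT73C7 and UGT73B4 without any one.

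**Figure D4:**
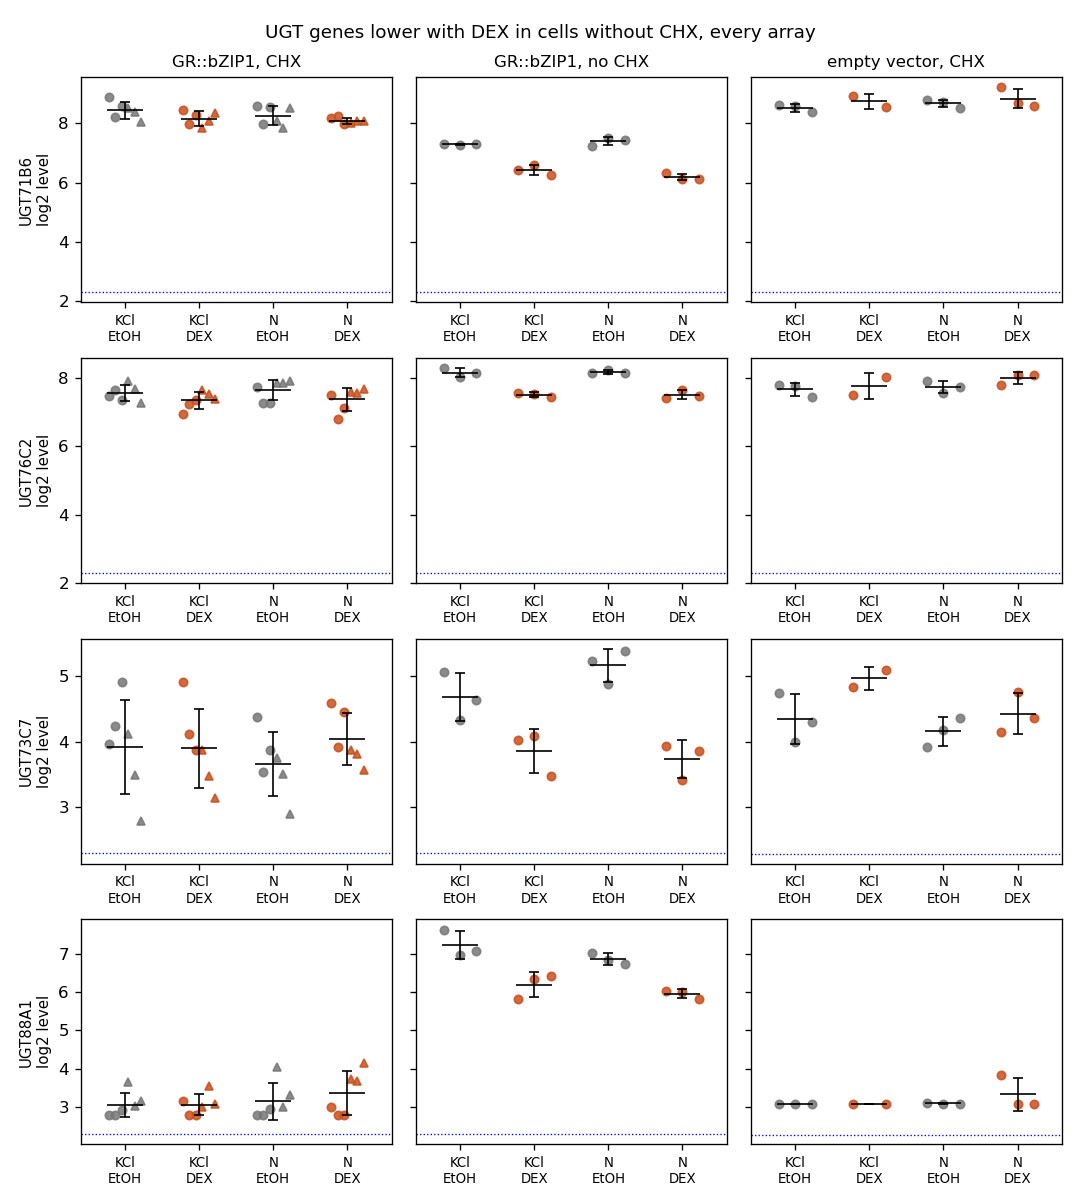
Log2 level of UGT71B6, UGT76C2, UGT73C7 and UGT88A1 on every array, by group; orange is DEX, grey is no DEX, triangles are Biorep 2, bars are the mean and SD, and the dotted line is the floor. In bZIP1 cells without CHX all arrays with DEX lie below all arrays without it for each gene, and in the other 2 sets they overlap.

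To ask whether CHX changes the response, the DEX effects of the 2 bZIP1 sets were compared in the fit of all arrays. In 7 of 47 genes (14.9%, against 4.46% of all probe sets) the DEX effect passed as higher with CHX, and in none as lower; over all probe sets 2.85% were higher and 1.61% lower. Of the 7, 4 were above the floor in both sets, and the other 3, UGT88A1, UGT76E1 and UGT71B1, were not. The largest of the 4 was UGT73C7, whose effect was 0.18 with CHX and -1.12 without, a difference of 1.30 ± 0.26 (limma adjusted p = 0.0013). For UGT71B6 the effects were -0.22 and -1.03, a difference of 0.81 ± 0.15 (limma adjusted p = 0.000484). UGT76B1 rose in both sets and more with CHX, by 0.63 ± 0.18 (limma adjusted p = 0.0266). That call was lost when replicate 1, 2 or 3 was left out, and with averaged arrays. UGT71C4 went opposite ways, 0.25 with CHX and -0.29 without, neither past its own test, and the difference of 0.54 ± 0.14 passed (limma adjusted p = 0.02). The UGT71C4 call was lost without replicate 1 or 2, without the Biorep covariate and with averaged arrays. UGT76C2 fell without CHX, but its difference of 0.41 ± 0.14 did not pass (limma adjusted p = 0.0909).

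In the other 3 calls the gene lay near its lowest values in at least 1 of the sets, where a DEX effect could hardly be measured, so the sizes of these differences depend on the floor. UGT88A1 differed by 1.08 ± 0.19 (limma adjusted p = 0.000277), and with CHX it sat at its own lowest value of 2.80 on 8 of 24 arrays and reached at most 4.15. UGT76E1 differed by 1.04 ± 0.22 (limma adjusted p = 0.00178), and without CHX it lay within 0.05 of the floor on 11 of 12 arrays. UGT71B1 differed by 0.32 ± 0.09 (limma adjusted p = 0.0236), and with CHX it lay within 0.05 of the floor on 23 of 24 arrays. Without CHX its mean was 3.1, so it did not count as above the floor there either. UGT71B6, UGT73C7 and UGT88A1 passed under all 10 alternatives run for them, and 4 of the 7 calls were left without replicate 1. CHX cannot be told apart from preparation or from the separate summarising in these differences, for the reasons given for the vectors.

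Side by side, the basal levels of some UGT genes stood far apart with and without CHX. In bZIP1 cells with neither N nor DEX, the means differed by at least 1 log2 unit in 12 of 47 genes (25.5%), 6 higher and 6 lower with CHX. Over all probe sets the share was 27.1%, so a gap of this size was as common elsewhere on the array. UGT88A1 ran from 2.80 to 3.65 with CHX and from 6.96 to 7.63 without, and it read 3.09 in all 3 empty-vector arrays, which had CHX. UGT76D1 ran from 4.65 to 6.83 with CHX against 2.34 on each array without it, and from 4.83 to 5.18 in the empty vector. UGT76E1 ran from 4.28 to 5.08 with CHX against 2.303 without, and from 5.37 to 5.70 in the empty vector. UGT84A1, which makes glucose esters of hydroxycinnamates, ran from 4.32 to 5.13 with CHX against 2.303 without, and from 4.98 to 6.10 in the empty vector. For these 4 genes both sets with CHX stood on the same side of the set without it. This was not particular to them: by means it held in each of the 12 genes with a gap of at least 1 log2 unit. The means of UGT71B6 were 8.44 in bZIP1 cells and 8.54 in the empty vector with CHX, against 7.29 without CHX. For UGT87A2 they were 10.02 and 9.23 against 11.74. The share over all probe sets was not counted. Among gaps smaller than those of the 4 genes, UGT71C5, an abscisic acid glucosyltransferase, had a mean of 4.76 with CHX and 6.32 without. None of these gaps was tested, because the sets share no scale.

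Nitrogen changed no UGT gene past the threshold. The count was 0 of 47 in bZIP1 cells with CHX (2.02% of all probe sets), 0 in bZIP1 cells without CHX (0.0879%) and 0 in empty-vector cells (0.163%), by limma with adjustment over all probe sets. At an unadjusted p under 0.05 the counts were 2, 1 and 1, and in empty-vector cells without replicate 3, which leaves 1 array with DEX and KCl, 3 genes passed. Shares over all probe sets at an unadjusted p under 0.05 were not counted, here or below. The nitrogen differences of the 47 genes ran from -0.24 to 0.28, from -0.30 to 0.33 and from -0.39 to 0.37 in the 3 sets. The lowest p with CHX belonged to UGT87A2, at 0.28 ± 0.11 (limma adjusted p = 0.292), with a 95% interval of 0.05 to 0.51. Without CHX it belonged to UGT84A4, at -0.15 ± 0.04 (limma adjusted p = 0.328), and in the empty vector to UGT76D1, at 0.27 ± 0.08 (limma adjusted p = 0.371).

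The DEX effect was not shown to depend on nitrogen in any UGT gene. The interaction passed in 0 of 47 genes and in 0% of all probe sets in each bZIP1 set, with 2 and 3 genes at an unadjusted p under 0.05 (limma). The interaction was largest in size for UGT74B1 without CHX, at 0.63 with a 95% interval of -0.31 to 1.58. UGT74B1 makes the desulfo form of glucosinolates, defence compounds. The nitrogen effect differed past the threshold in 0 of 47 genes between cells with and without CHX (0.343% of all probe sets) and in 0 between the vectors (0.0747%), by limma, with 2 and 0 genes at an unadjusted p under 0.05.

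Levels of some UGT genes in bZIP1 cells with CHX also differed between the 2 preparations. In 4 of 47 genes (8.51%, against 3.39% of all probe sets) the 12 arrays of Biorep 1 and the 12 of Biorep 2 did not overlap, 1 higher and 3 lower in Biorep 2 (1.65% and 1.74% of all probe sets). UGT72E2, which glucosylates monolignols, ran from 3.03 to 5.30 with a median of 4.08 in Biorep 1 and from 6.40 to 7.56 with a median of 6.92 in Biorep 2. Its mean was 2.82 higher in Biorep 2. UGT73D1 was lower in Biorep 2 by a mean difference of -1.49, UGT73B5 by -1.36 and UGT73B4 by -0.73. The 3 genes that were lower are all of family 73. UGT87A2 (9.69 ± 0.28 in Biorep 1 and 10.65 ± 0.31 in Biorep 2, SD, n = 12 each) and UGT74B1 (6.05 ± 0.52 and 7.15 ± 0.22) were higher in Biorep 2 with overlap.

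Biorep was a term in the fit, so these shifts do not enter the DEX differences. UGT72E2 showed a DEX difference of -0.79 in Biorep 1 and 0.23 in Biorep 2, and it did not pass over both. In all 8 genes called for DEX in that set the sign was the same in both Bioreps. These genes were called from the effect over both Bioreps, which favours such agreement, so it is no separate test.

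**Figure D5:**
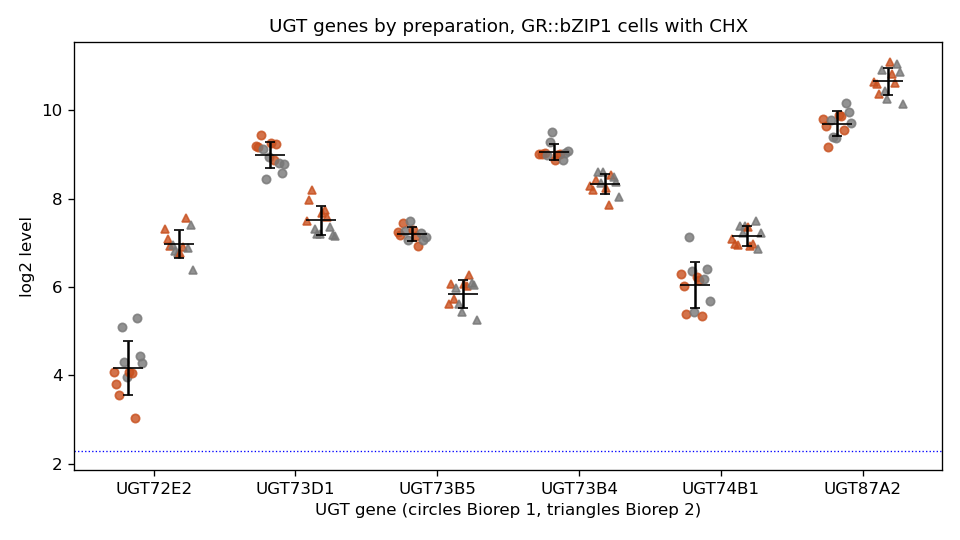
Log2 level on each array of bZIP1 cells with CHX for 6 UGT genes, with Biorep 1 left (circles) and Biorep 2 right (triangles); orange is DEX, grey is no DEX, bars are the mean and SD of 12 arrays, and the dotted line is the floor. The Bioreps do not overlap for UGT72E2, UGT73D1, UGT73B5 and UGT73B4.

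Of the pathway around the UGT genes little was named on the array. Among 27 listed genes of UDP-sugar supply only USP, a UDP-sugar pyrophosphorylase, was named. It ran from 4.21 to 5.05 in bZIP1 cells with CHX and passed in no comparison. Among 17 genes of phenylpropanoid and flavonoid synthesis only DFR, dihydroflavonol reductase, was named, and it was at the floor on every array. Glutathione S-transferases, another group of conjugating enzymes for foreign compounds, had 13 named genes. In bZIP1 cells with CHX, GSTU26 rose by 0.87 ± 0.14 (limma adjusted p = 0.000166) and GSTU22 fell by 0.33 ± 0.06 (limma adjusted p = 0.00189), 2 of 13 against 6.16% of all probe sets. Without CHX none of the 13 passed by limma, against 4.29%, and 4 had an unadjusted p under 0.05; GSTU26 came nearest, at 0.49 ± 0.11 (limma adjusted p = 0.0545). In GSTU26 the DEX effect was higher with bZIP1 than with the empty vector by 1.30 ± 0.23 (limma adjusted p = 0.000137), as it was in UGT76B1. GSTU27 and GSTU22 differed in DEX effect between cells with and without CHX, by 0.77 ± 0.20 and -0.52 ± 0.14 (limma adjusted p = 0.0163 and 0.016). No listed glutathione S-transferase passed for N.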

How the data were processed

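The deposited table holds log2 values of 47 arrays, 1 column per array. Per the submitters' processing notes the authors used GCRMA, for which no version was given. The log2 scale was read from the deposited values, and the separate summarising of the 3 sets was inferred from their different floors. No other step is given in the sources used here. GCRMA pulls dim probe sets to a common floor, where differences shrink towards 0. RNA was amplified before labelling, per the labels' protocols.

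The labels' vector and 3 treatments define the 12 groups. Gene names came from the array annotation, which gave 1 gene for 13513 probe sets, several for 503 and none for 8730; 64 control probe sets were left out. All 47 UGT probe sets entered every test, with no filter on low values.

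Each effect was fitted in limma 3.58.1 (R 4.3.3, lmFit and eBayes, two-sided) over all 22746 probe sets, with Benjamini-Hochberg adjustment and a threshold of 0.05; 12 comparisons were made. The DEX effect averages the 2 differences between a group with DEX and its match without, one at each N state; N effects are formed in the same way. Effects within a set came from that set's arrays, with Biorep as a covariate in bZIP1 cells with CHX, and differences between sets from 1 fit of all 47 arrays. Of pairs of arrays of the same Biorep, 108 of 108 correlated above 0.1 after removal of group means (median 0.524). Treatment replicate numbers were not a term in the main fits. Of pairs with the same number, 16 of 36, 14 of 18 and 8 of 15 passed that mark in bZIP1 cells with CHX, without CHX and in the empty vector. Their median correlations were 0.0985, 0.21 and 0.117, against -0.0566, -0.08 and -0.0646 for pairs of different numbers. Some pairing by number is thus visible, and a fit with replicate blocks was run as an alternative. Arrays hold no counts, and their number limits the precision. The fits were tested on simulated data with independent noise, no floor, and effects in brighter probe sets only. That test does not cover genes near the floor or arrays that are technical replicates.

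The family whose genes are the members, the gene lists and the tests were chosen with earlier results of these data known. By rule any member may be named, up to 8 per comparison by adjusted p, with values of single arrays for the leading 3; levels, Biorep ranges and the values side by side were added to describe genes after their values were seen. Up to 4 genes per companion list may be named. Alternatives varied the filter, the scaling, the replicates, the Biorep term, the eBayes setting and the arrays in the fit. Sequences of the genes are not used here.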

Additional observations from a re-analysis of the deposited data

Results flagged for a closer look

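The DEX effect differed between bZIP1 cells with and without CHX, by a test of the difference, in 7 UGT genes: by 0.32 in UGT71B1, 0.81 in UGT71B6, 0.54 in UGT71C4, 1.3 in UGT73C7, 0.63 in UGT76B1, 1.04 in UGT76E1 and 1.08 in UGT88A1, each higher with CHX on the log2 scale. UGT71B1 and UGT88A1 with CHX, and UGT76E1 without CHX, lay near the floor, so the sizes of these 3 differences depend on it. UGT71B1 was above the floor in no set. Between bZIP1 and empty-vector cells the DEX effect differed in UGT76B1, by 1.17.

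Single arrays stood apart within their group of 6 in UGT71B1 in bZIP1 cells with CHX. The array of treatment replicate 2 in Biorep 1 read 2.31 among the arrays with neither N nor DEX, that of treatment replicate 3 in Biorep 1 read 2.95 with N and DEX, and that of treatment replicate 3 in Biorep 1 read 2.32 with N alone. These were 3 of 60 groups tested over 15 genes. In each, the other 5 arrays shared 1 value of 2.31 next to the floor, so any departure at all was marked, and the usual chance rate of about 1 in 20 does not apply. In 2 of the 3 the departing value also lay within 0.05 of the floor.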

How the results depend on the processing

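Of the 23 calls of a UGT gene in a comparison, 5 held under every alternative run for them (UGT71B6 for DEX without CHX, UGT71B6, UGT73C7 and UGT88A1 for the difference with CHX, and UGT76B1 for the difference between vectors). Over 246 alternative values, 180 calls were kept, 66 were lost and 0 changed direction. The DEX count with CHX fell from 8 to 4 without the Biorep covariate, to 2 in Biorep 1 alone, to 2 in Biorep 2 alone, to 0 with averaged arrays and to between 3 and 4 with a replicate left out. The DEX count without CHX was 1 to 4 with a replicate left out. After centring arrays on their medians it was 21 (14 higher and 7 lower, against 1 and 5) and the N count without CHX was 13; that centring moves floor values by construction and called 8410 and 7262 probe sets in all. In the empty vector the DEX count was 2 with the filter on low values, 2 in the fit of all 47 arrays and 0 to 3 with a replicate left out, and the N count was 0 to 3; leaving out replicate 1 or 3 leaves 1 array with DEX and KCl, assumed to vary like the others. The replicate block moved the N count with CHX from 0 to 1 and the DEX difference between vectors from 1 to 2. It lost the DEX calls of UGT76E2 with CHX and UGT73B4 without CHX. Pairing by replicate number was weak but visible in all 3 sets. The DEX difference between vectors was also 2 with the filter, 2 with averaged arrays and 1 to 3 with a replicate left out; the DEX difference with CHX was 4 to 5, and it was 4 of 7 when only genes above the floor in both sets were counted, an alternative added after seeing the data; the N difference with CHX was 0 to 1. Apart from centring, counts over all probe sets are not given for these alternatives. A changed count is therefore no result about UGT genes in particular. The causes were not tested. Genes near the floor have only small measurable falls.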
